A study of Mus musculus with 12 samples.

Results

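This account covers the carriers of organic ions, nucleosides and monocarboxylates and the ATP-binding cassette (ABC) transporters of a mouse kidney cell line that was made to lose the transcription factor PAX8. The genes were taken by symbol: the solute carrier families Slc16, Slc22, Slc28, Slc29 and Slc47, the Slco family, and the ABC subfamilies A to G. The rule found 113 genes of the 55491 in the tables, 63 solute carriers and 50 ABC transporters, and it used no measured value.

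PolyA RNA was sequenced from PT-22, a line labelled as proximal tubule and as kidney, with 3 libraries (A, B and C) in each of 4 groups. All 12 libraries, controls included, are labelled with the genotype Pax2-/-,Pax8fl/fl,Rosa-CreERT2, in which Cre, driven from the Rosa locus, is activated by 4-hydroxytamoxifen. Cells were grown to confluence in medium with fetal bovine serum. The control libraries come from untreated cells, and the others from cells given 1 µM 4-hydroxytamoxifen for 2 days and collected at day 2, day 6 or day 12. This is 1 cell line of unstated clonality. Neither vehicle-treated cells nor untreated cells of a later day are among the groups, so loss of PAX8, the drug, Cre and time in culture cannot be told apart. Whether A, B and C were separate cultures is not stated, and p-values then measure only the spread between these libraries, which may be technical.

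Proximal tubule cells clear drugs, toxins and metabolites from blood into urine. Organic anion and cation carriers of the SLC22 family take them up from the blood side, and MATE proteins (SLC47) and ABC pumps of the B, C and G subfamilies pass them on at the urine side. Several monocarboxylate carriers (SLC16) move lactate and related acids together with protons. Equilibrative carriers (SLC29) and sodium-driven carriers (SLC28) move nucleosides, and ABCA and ABCG proteins export lipids from membranes.

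The labelled cell type was checked against its markers and the deletion against Pax8. Of 18 proximal tubule markers, 10 passed the filter on low counts, and Slc34a1, Slc5a2, Slc5a12 and Kap, markers of the differentiated tubule, had no count in any library, while Cdh16 had 1103 ± 53.5 CPM (counts scaled to the library total) in the control libraries. The summed CPM of the 18 markers ran from 1740 to 1840 in control libraries, most of it Cdh16. It ran from 1140 to 1250 at day 2, 1230 to 1480 at day 6 and 696 to 907 at day 12. The sum hides opposite movements. Of the 10 tested markers, 1 was called higher and 8 lower at day 6 and again at day 12 (90%, against 54.3% and 52.8% of all tested genes). Their median log2 fold change was -2.76 and -2.48. Markers of fibroblasts and smooth muscle summed to 5.4 to 6.06 CPM in control and 300 to 350 at day 12, nearly all of it Acta2, with Pdgfra at 0, and their part in the results below was not tested. Markers of the thick ascending limb, collecting duct and endothelium summed to under 5 CPM in all libraries, those of leukocytes to at most 20.6 CPM, nearly all of it Csf1r with Cd3e and Itgam at 0, and those of podocytes to 167 to 246 CPM from Podxl and Synpo. Pax8 had 225 ± 3.46 CPM in control libraries, and its means on days 2, 6 and 12 were 402 ± 51, 256 ± 10.9 and 242 ± 10.5 CPM (SD, n = 3), so its total count did not fall. By edgeR, Pax8 was called higher at day 2 (log2 fold change 0.83, adjusted p = 5.59e-12) and day 6 (0.18, adjusted p = 0.0181). At day 12 it was not called (adjusted p = 0.189). Which part of the gene was deleted is not given, so the total count does not check the deletion. Pax2, labelled -/- in all libraries, was counted at 46.8 ± 5.78 CPM in control libraries. Its means on days 2, 6 and 12 were 71.6 ± 11.7, 79 ± 6.45 and 50.5 ± 3.71 CPM (SD, n = 3). Day 2 (log2 fold change 0.58, adjusted p = 0.000153) and day 6 (0.74, adjusted p = 8.78e-07) were called higher by edgeR. Which part of Pax2 is missing is not given either, so its counts do not check that label. Library totals ran from 4326667 to 11654959 counts, and the 113 genes took 0.295 to 0.327% of them.

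Of the 113 genes, 52 passed the filter on low counts and were tested among 13513 genes. The other 61 comprised 45 with a few counts and 16 with none. A count of 0 over all 12 libraries allows up to 0.0292 CPM (3 counts of the total), counting error only. In the control cells the highest levels per transcript length belonged to Abcf1 at 118 ± 17 TPM (transcripts scaled for length and library), Abcf2 at 88.5 ± 4.67, Abce1 at 79.4 ± 4.48 and Abcd3 at 76.8 ± 7.5 (SD, n = 3), proteins of translation and of the peroxisome. Among membrane carriers of the cell surface, Slc16a12 stood at 68.1 ± 4.25 TPM, Slc29a1 at 61.1 ± 4.54, Slc16a3 at 56.9 ± 1.55, Slco4a1 at 54.8 ± 0.805 and Slco2a1 at 52.9 ± 1.4. Slc29a1 and Slc16a3, neighbours in this order, differed by less than the larger of their SDs.

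Levels below are CPM on TMM-scaled library totals unless TPM is named, and a change is called where edgeR's quasi-likelihood test gives a Benjamini-Hochberg adjusted p under 0.05 over the 13513 genes. Where a call is said below to be lost, only left-out libraries and limma on TPM are named. Losses with DESeq2, its size factors or other filters are given at the end. At day 2, 18 of the 52 tested genes had changed, 9 higher and 9 lower (34.6%; 21.2% of all tested genes were called). At day 6 it was 36 genes, 16 higher and 20 lower (69.2%; 54.3% of all tested genes). At day 12 it was 35 genes, 13 higher and 22 lower (67.3%; 52.8% of all tested genes). The median log2 fold change of the 52 genes was 0.00, -0.07 and -0.10 at the 3 days, and that of all tested genes 0.00, -0.01 and 0.00. Changes of at least 2-fold were called in 3 genes at day 2, 12 at day 6 and 12 at day 12, where 4.31%, 13.3% and 13.7% of all tested genes passed the same mark. Across the 4 groups, 43 of the 52 genes differed (82.7%; 65.1% of all tested genes). The summed TPM of all 113 genes was 1322 ± 50.3 in control and 1293 ± 12.7, 1349 ± 27.6 and 1270 ± 36.5 on days 2, 6 and 12. The 3 comparisons with control share the same control libraries. Groups of 3 libraries often did not overlap at all: against control, in 32.2%, 60.9% and 59.8% of all tested genes at days 2, 6 and 12. The same held for 51.5% between day 6 and day 2 and 39.3% between day 12 and day 6. Of the 52 genes, 13 lay wholly above control and 15 wholly below at day 2. At day 6 it was 16 and 20 genes, and at day 12 it was 14 and 24. In these bulk libraries fewer cells with a transcript and less of it per cell cannot be told apart.

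**Figure D1:**
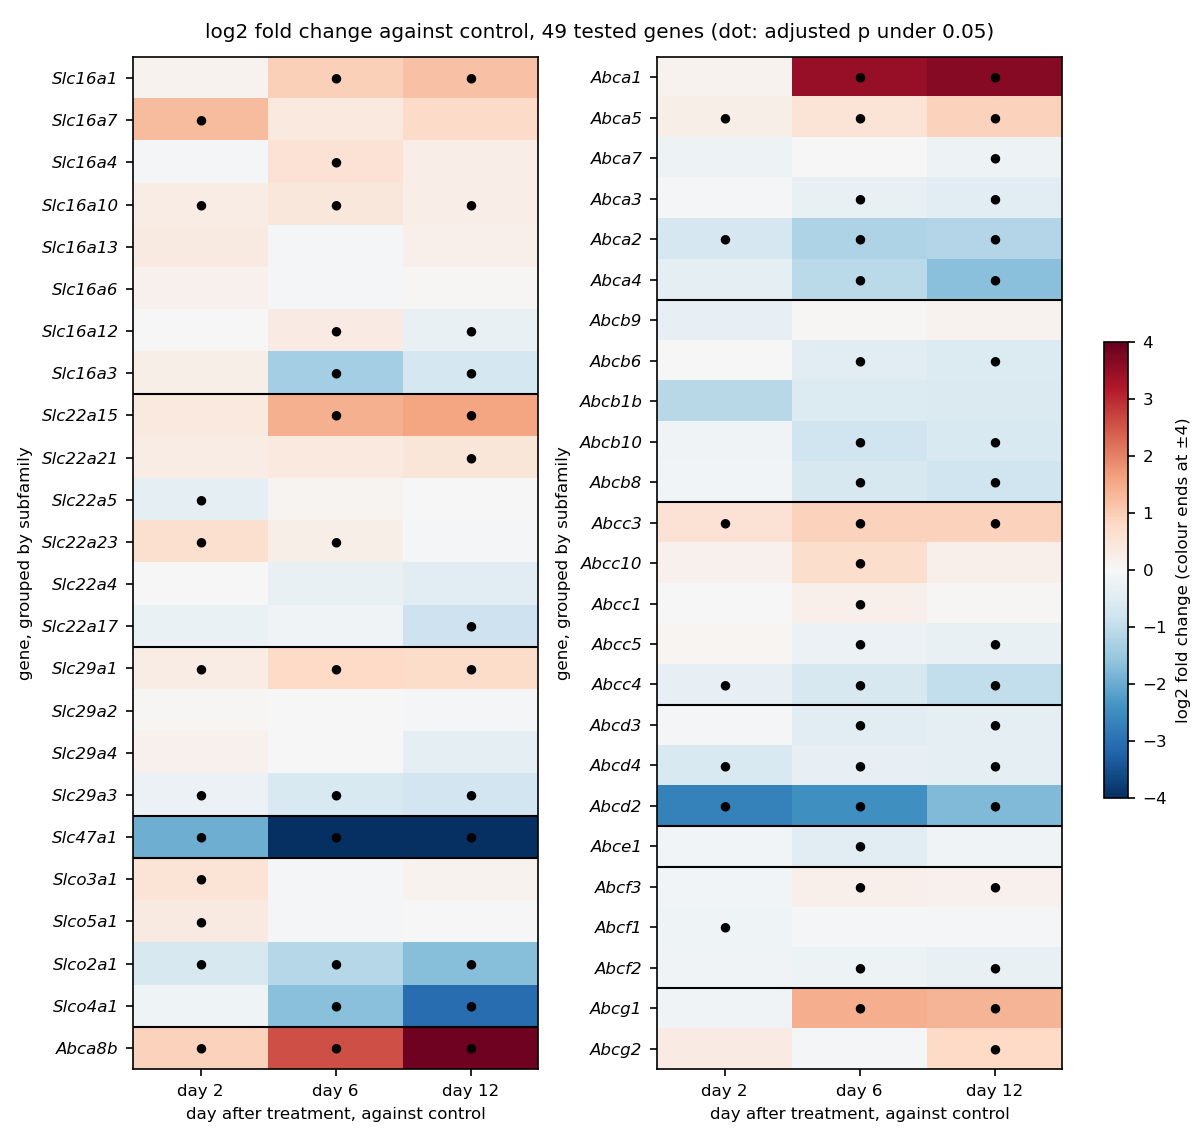
Heat map of the log2 fold change against control at day 2, day 6 and day 12 (columns) of 49 of the 52 tested genes (rows, grouped by subfamily and ordered by the day 12 value); red is higher, blue is lower, the colour ends at ±4, and a dot marks an adjusted p under 0.05. Abca1 and Abca8b are the darkest red at day 12, and Slc47a1 and Slco4a1 the darkest blue.

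Promoter sequences are shown for 4 genes that moved far and whose family sections follow, as the 250 bases before the RefSeq start (GRCm38.p6), 5′ to 3′ on the gene's strand. Capitals mark matches to 7 short motifs searched on both strands: the E-box CACGTG, the ACGTG core of hypoxia-responsive elements that lies inside it, the GC box GGGCGG, the TATA-like TATAAA, the box CCAAT, the letters GGTCA (part of nuclear receptor sites) and GCGTGAC (a core of PAX sites).
Abca1, chr4:53159896-53160145, minus strand: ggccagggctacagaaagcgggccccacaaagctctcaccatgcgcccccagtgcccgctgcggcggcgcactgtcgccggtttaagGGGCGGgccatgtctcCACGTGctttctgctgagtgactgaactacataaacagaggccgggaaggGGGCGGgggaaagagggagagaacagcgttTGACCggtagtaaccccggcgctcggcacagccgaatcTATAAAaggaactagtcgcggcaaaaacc
Slc16a1, chr3:104638414-104638663, plus strand: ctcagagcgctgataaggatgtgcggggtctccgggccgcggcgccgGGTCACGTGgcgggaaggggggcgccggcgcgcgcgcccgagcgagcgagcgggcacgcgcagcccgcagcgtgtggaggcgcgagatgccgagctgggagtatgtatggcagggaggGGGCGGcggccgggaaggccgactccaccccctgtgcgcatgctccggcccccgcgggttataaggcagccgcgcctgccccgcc
Slc16a3, chr11:120948817-120949066, plus strand: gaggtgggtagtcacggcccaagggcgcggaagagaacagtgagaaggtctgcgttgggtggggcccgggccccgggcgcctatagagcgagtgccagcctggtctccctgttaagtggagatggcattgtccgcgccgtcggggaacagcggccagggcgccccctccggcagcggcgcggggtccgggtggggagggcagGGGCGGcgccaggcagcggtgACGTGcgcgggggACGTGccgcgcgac
Slco2a1, chr9:103008237-103008486, plus strand: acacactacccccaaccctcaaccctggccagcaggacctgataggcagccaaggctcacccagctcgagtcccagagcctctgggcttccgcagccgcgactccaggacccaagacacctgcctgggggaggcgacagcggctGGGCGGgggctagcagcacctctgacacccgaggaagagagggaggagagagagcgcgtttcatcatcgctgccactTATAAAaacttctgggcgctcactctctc
The Abca1 window holds the E-box, 2 GC boxes, TATAAA and, on the reverse strand, GGTCA. The Slc16a1 window holds the E-box, with GGTCA overlapping it, and a GC box, and the Slc16a3 window 2 ACGTG cores and a GC box with no E-box. The Slco2a1 window holds a GC box and TATAAA. Of 32851 promoter windows of the same length, 6.02% hold CACGTG, 16.6% ACGTG, 32.7% GGGCGG, 12.4% TATAAA, 33.8% CCAAT, 35.2% GGTCA and 1.78% GCGTGAC. Of 109 windows of the transporter genes, which belong to 90 genes, 9.17%, 15.6%, 37.6%, 11.9%, 30.3%, 37.6% and 0.917% do, in the same order. These are matches of letters and say nothing of binding.

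The 2 main lactate carriers of the Slc16 family moved in opposite directions at days 6 and 12. Slc16a1, which encodes MCT1, the widely used lactate and pyruvate carrier (chromosome 3, 104638668 to 104658462, plus strand, GRCm38), had 107, 107 and 106 CPM in control and 123, 114 and 116 at day 2. Slc16a1 then stood at 207, 218 and 190.4 CPM on day 6 and 246, 251 and 229 on day 12. The day 6 and day 12 libraries lay above all control libraries, and the rise was 1.93-fold at day 6 (log2 fold change 0.95, SE 0.061, adjusted p = 1.91e-15) and 2.27-fold at day 12 (1.18, SE 0.06, adjusted p = 3.2e-18). Slc16a3, which encodes MCT4, the carrier known for lactate export from glycolytic cells (chromosome 11, 120948480 to 120960868, plus strand), had 54.4, 66 and 54.9 CPM in control and 74.7, 76.9 and 58.4 at day 2. Slc16a3 then stood at 22.5, 22.5 and 23.9 CPM on day 6 and 32.3, 38.8 and 36 on day 12. All day 6 and day 12 libraries lay below the lowest control library, with a fall of 2.54-fold at day 6 (-1.34, SE 0.10, adjusted p = 3.75e-12) and 1.63-fold at day 12 (-0.70, SE 0.098, adjusted p = 4.68e-07). At day 2 neither gene was called (adjusted p 0.112 and 0.0676). Slc16a3 was called higher without day 2 C (0.00151) or control B (0.0154), with no filter on low counts (0.0296) and with a block for the library letter (0.0316).

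On the length-scaled TPM values the order of the pair turned over. Slc16a1 made up 39.9% ± 1.4 of the summed TPM of Slc16a1 and Slc16a3 in control and 37.9% ± 4.04, 77.3% ± 2.09 and 71.2% ± 1.45 on days 2, 6 and 12 (SD, n = 3). The share ran from 35.03 to 42.55% over the 6 control and day 2 libraries and from 69.8 to 79.4% over the 6 later ones, without overlap.

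**Figure D2:**
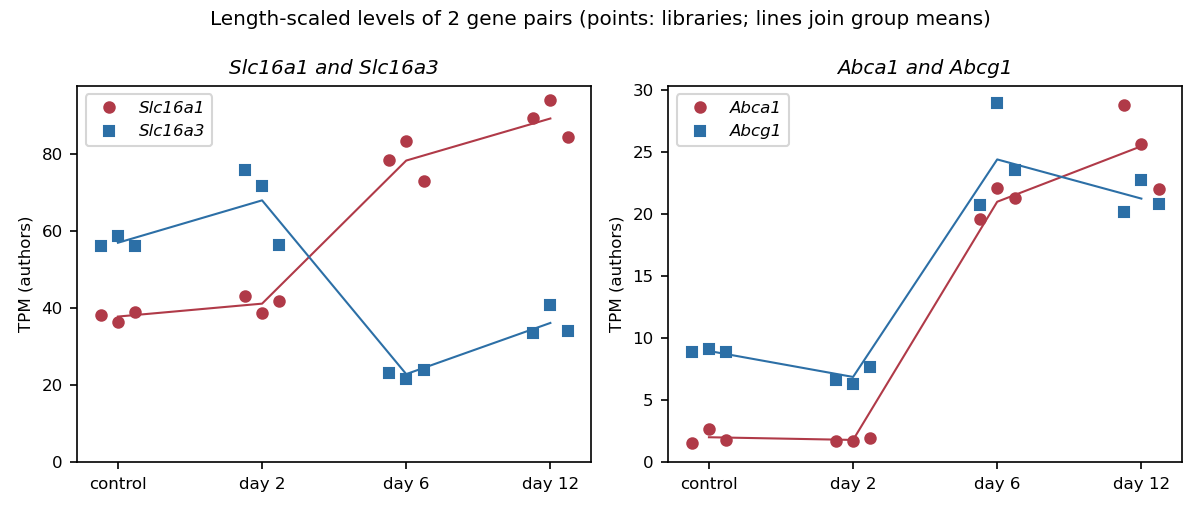
TPM, as made by the authors, of Slc16a1 and Slc16a3 (left) and of Abca1 and Abcg1 (right) in each library (points), with lines through the group means. The Slc16a1 and Slc16a3 lines cross between day 2 and day 6, and Abca1 climbs from 2.03 to 25.4 TPM.

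Genes of lactate handling were listed beside them; of 10, 7 were tested. At day 6, 1 rose and 5 fell (85.7% called), and at day 12, 1 rose and 4 fell (71.4%). Here and for the other lists below, 54.3% of all tested genes were called at day 6 and 52.8% at day 12. The median log2 fold change was -0.58 and -0.47, against -0.01 and 0.00 over all tested genes. The riser was Emb, embigin, a chaperone that brings monocarboxylate carriers to the membrane, at 89.9 ± 1.18 CPM in control, 242 ± 12.3 at day 6 and 219.5 ± 16 at day 12 (log2 fold change 1.29, adjusted p = 6.56e-19 at day 12). Bsg, basigin, the usual partner of MCT1 and MCT4, was not called at day 6 or day 12 (adjusted p 0.488 and 0.147) and had 659 ± 16.6 CPM in control. Ldha, the lactate dehydrogenase subunit of glycolytic tissue, fell from 1032 ± 118 CPM to 374 ± 16.1 on day 6, with 600.4 ± 34.3 on day 12 (-0.78, adjusted p = 9.25e-12). Mpc2, a subunit of the mitochondrial pyruvate carrier, fell from 79.5 ± 2.55 to 38.9 ± 3.94, 21.1 ± 4.26 and 22.7 ± 1.85 CPM at the 3 days (-1.81, adjusted p = 3.51e-17 at day 12).

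Carriers of aromatic amino acids and of creatine in the Slc16 family rose at day 6; at day 12 the former was still higher than control and the latter lower. Slc16a10, which carries aromatic amino acids and thyroid hormone, had 107, 112 and 111 CPM in control and 148, 141 and 119 at day 2. Slc16a10 then stood at 156, 147 and 146 CPM on day 6 and 136, 125 and 133 on day 12, higher at each day by 0.30, 0.45 and 0.26 on the log2 scale (adjusted p 0.00104, 7.05e-07 and 0.00155). The day 2 call was lost by limma on log2(TPM + 1) (adjusted p = 0.105). Thra, a thyroid hormone receptor from the list of nuclear receptors below, went from 66.2 ± 2.13 to 126 ± 2 CPM at day 6 and 111 ± 7.58 at day 12 (0.93, adjusted p = 1.93e-14 at day 6). Slc16a12, the creatine carrier MCT12 and the monocarboxylate family member with the highest control TPM, had 171, 172 and 180.2 CPM in control and 177, 181 and 175 at day 2. Slc16a12 then stood at 223, 216 and 224 CPM on day 6 and 149, 139 and 140.3 on day 12. It was higher than control at day 6 (0.34, SE 0.054, adjusted p = 2.03e-06) and lower at day 12 (-0.29, SE 0.055, adjusted p = 3.54e-05), with no overlap of either day with the control libraries.

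The rest of the Slc16 family was low. Slc16a7, the MCT2 carrier, had 0.806, 1.52 and 0.941 CPM in control and 2.58, 2.34 and 2.73 at day 2 (1.27, SE 0.36, adjusted p = 0.0091), a call lost without control A (0.0567) and by limma on log2(TPM + 1) (adjusted p = 0.115). It was not called at the later days, with a call at day 12 only without control B (0.0482). Slc16a4 had 5.41, 3.6 and 4.5 CPM in control and 6.96, 5.86 and 7.6 at day 6 (0.58, SE 0.20, adjusted p = 0.0152), a call lost without day 6 C (0.0632) or control B (0.0814). Slc16a6 and Slc16a13 were not called at any day. Of the 5 members below the filter, Slc16a9, described as a carnitine and creatine carrier, had 1, 0 and 0 counts in control and 1, 0 and 2 at day 2. Slc16a9 then stood at 8, 5 and 5 counts on day 6 and 26, 22 and 5 on day 12. The day 12 ratio to control was 49.6, with 95% counting limits of 8.53 and 2000. Without control A, the library with the single control count, day 12 was at least 10.9-fold higher. Slc16a14 had 12 and 17 counts in the control and day 2 libraries, then 0 and 3 on days 6 and 12. Slc16a5, Slc16a8 and Slc16a11 had 4 to 27 counts per group.

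**Figure D3:**
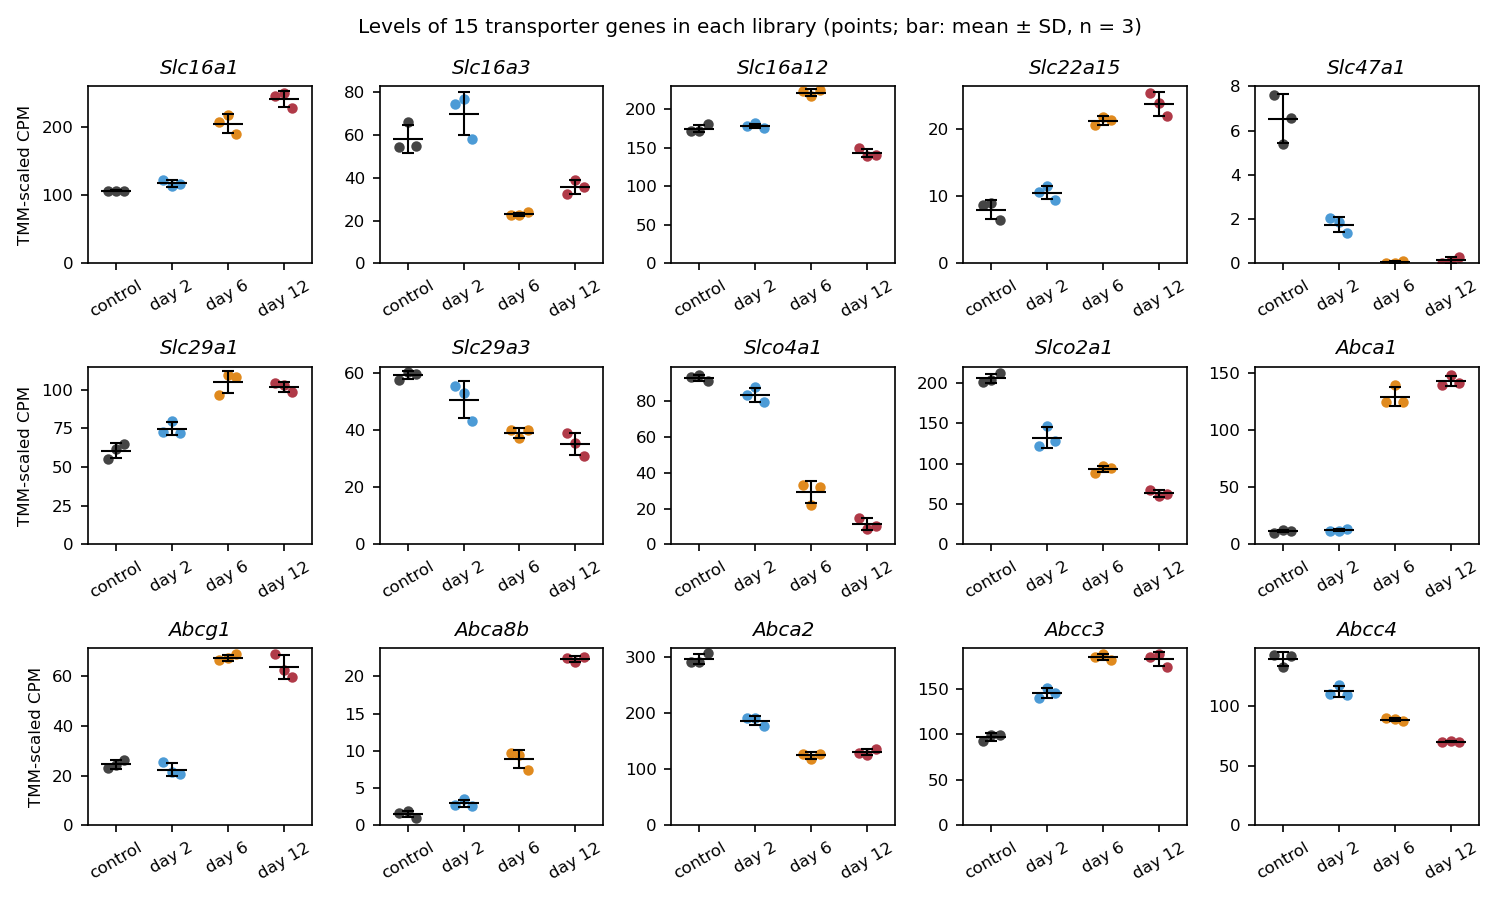
CPM of 15 transporter genes on TMM-scaled totals (vertical axis, from 0) in each library of the 4 groups (points; bars show the mean and SD, n = 3). Slc16a1, Slc22a15, Slc29a1, Abca1, Abcg1, Abca8b and Abcc3 are highest in the later groups, and Slc47a1, Slc29a3, Slco4a1, Slco2a1, Abca2 and Abcc4 lowest.

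Among the organic anion and cation carriers Slc22a2, Slc22a3, Slc22a6, Slc22a8, Slc47a1 and Slc47a2, Slc47a1 had the most control counts, and it fell. The others had few or no counts in the control cells. Slc47a1, which encodes MATE1, the proton exchanger that passes organic cations into urine (chromosome 11, 61343401 to 61378345, minus strand), had 66, 39 and 63 counts in control and 15, 8 and 16 at day 2. Slc47a1 then stood at 0, 0 and 1 counts on day 6 and 0, 1 and 3 on day 12. In CPM this was 7.6, 5.4 and 6.58 in control and 2.04, 1.87 and 1.37 at day 2, a fall already called there by 3.84-fold (-1.94, SE 0.32, adjusted p = 1.08e-05), though not by limma on log2(TPM + 0.1) (adjusted p = 0.114). On day 6 a single count remained against 168 in control, 175 times fewer per total count (95% counting interval 31.1 to 6970, adjusted p 1.79e-12), and at least 42-fold fewer without day 6 C, which held that count. On day 12 there were 4 counts (log2 fold change -5.35, SE 0.47, adjusted p = 6.43e-12). Slc47a2 had 3 counts, all at day 2.

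Of 25 Slc22 genes, 6 were tested. The basolateral organic anion carriers Slc22a6 and Slc22a8 (OAT1 and OAT3) had 1 count and 2, 0 and 4 counts in control and 0 in all treated libraries. Slc22a12, the urate exchanger URAT1, had 2 counts in control, 2 at day 2 and 0 after. The organic cation carrier Slc22a2 had 3, 3 and 12 counts in control, 2, 3 and 1 at day 2 and 0 in all 6 later libraries, at least 6.27-fold lower at day 6 and 6.41-fold lower at day 12 against a limit of 3 counts over the group. Control C held most of the control counts, and without it the bounds were 3.35 and 3.42; leaving out any other library gave 3.9 to 8.1. Slc22a3, another cation carrier, had none. No difference in Slc22a6 or Slc22a12 was detectable at this depth, and none is drawn for Slc22a8, whose control counts lie mostly in control C. Slc22a14 had 0, 0 and 3 counts in control and 9, 14 and 5 at day 6 (ratio 8.94, 95% counting limits 2.76 and 45.9; at least 5.58-fold without control C, which held all 3 control counts), and 12 counts at day 12.

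Among the tested Slc22 genes, 1 rose and 1 fell at day 2, 2 rose at day 6, and 2 rose and 1 fell at day 12 (33.3%, 33.3% and 50% called, against 21.2%, 54.3% and 52.8% of all tested genes). Slc22a15, a carrier of zwitterions such as carnitine and ergothioneine in human, had 8.64, 8.99 and 6.38 CPM in control and 10.6, 11.5 and 9.48 at day 2. Slc22a15 then stood at 20.5, 21.8 and 21.3 CPM on day 6 and 25.3, 23.8 and 21.9 on day 12. Its day 6 and day 12 libraries lay above all others, 2.67-fold (1.42, SE 0.14, adjusted p = 5.08e-11) and 2.98-fold (1.57, SE 0.13, adjusted p = 2.47e-12) over control. Slc22a23, an orphan carrier and the family member with the highest TPM (37.9 ± 0.29 in control), was high at day 2. Its CPM was 134, 131 and 134 in control and 188, 228 and 206 at day 2, then 149.8, 163 and 157 on day 6 and 133, 128 and 128 on day 12. The day 2 libraries lay above all others (0.63, SE 0.062, adjusted p = 5e-10), day 6 was higher by a smaller amount (0.23, SE 0.062, adjusted p = 0.00193), and day 12 was not called (adjusted p 0.623). Slc22a17, a receptor for lipocalin-2, had 19.9, 19.6 and 21 CPM in control and 11.3, 13.5 and 9.24 at day 12 (-0.84, SE 0.14, adjusted p = 4.21e-06), with no overlap.

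The OCTN carriers, which handle carnitine and ergothioneine, moved little. Slc22a5, the carnitine carrier OCTN2, had 24.3, 24.4 and 21.9 CPM in control and 18.9, 14.7 and 19.3 at day 2 (-0.38, SE 0.11, adjusted p = 0.0129), lower only there; the call was lost without day 2 B (0.0678). Slc22a4 was not called at any day, with a lower call at day 12 only without day 12 B (0.0452) or control A (0.0481). Slc22a21, a mouse paralog beside it, rose by 0.49 at day 12 (adjusted p 0.0456), a call lost without day 6 B (0.0514), day 12 A (0.0637), day 12 C (0.195), control A (0.0739), control B (0.138) or control C (0.0615) and by limma on log2(TPM + 1) (adjusted p = 0.915). The 3 genes lie together on chromosome 11 (53864542 to 54028090) and are similar enough that reads may be split between them. Of 8 genes of carnitine use, 6 were tested; 1 rose and 2 fell at day 6 (50% called), and 1 rose and 3 fell at day 12 (66.7%), among them Cpt1a, the carnitine palmitoyltransferase of the outer mitochondrial membrane, from 174 ± 5.3 to 116 ± 6.78 CPM (-0.59, adjusted p = 9.35e-11).

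Other carriers of organic anions and bile acids were listed for comparison, and 6 of 18 were tested: 3 rose and 3 fell at day 6 (100% called), and 2 rose and 1 fell at day 12 (50%). Slc10a2, the apical bile acid carrier, went from 0.119 ± 0.0173 to 3.59 ± 0.849 CPM (4.77, adjusted p = 2.82e-09). Its control mean stood at about the limit of 3 counts over that group (0.118 CPM), so the size of the rise is uncertain. Slc13a2, the citrate and dicarboxylate carrier, went from 1.77 ± 0.0885 to 0 at day 6 and 0.185 ± 0.131 at day 12 (-3.17, adjusted p = 3.96e-05).

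Among nucleoside carriers, Slc29a1 rose, Slc29a3 fell, and Slc29a2 and Slc29a4 were not called. Slc29a1, the equilibrative nucleoside carrier ENT1 of the plasma membrane, had 55.3, 61.9 and 64.6 CPM in control and 72.6, 79.7 and 72.1 at day 2. Slc29a1 then stood at 96.5, 109 and 108 CPM on day 6 and 104, 103 and 98.3 on day 12. Each treated library lay above every control library, with 1.23-fold at day 2 (0.29, SE 0.075, adjusted p = 0.0034), 1.73-fold at day 6 (0.79, SE 0.071, adjusted p = 1.47e-11) and 1.68-fold at day 12 (0.75, SE 0.071, adjusted p = 4.75e-11). Slc29a3, the lysosomal nucleoside carrier ENT3, had 57.7, 60.5 and 59.6 CPM in control and 55.6, 53.1 and 43.4 at day 2. Slc29a3 then stood at 40.1, 37.1 and 40.1 CPM on day 6 and 39, 35.6 and 31.1 on day 12. It was lower by 1.51-fold at day 6 (-0.60, SE 0.089, adjusted p = 6.16e-07) and 1.69-fold at day 12 (-0.75, SE 0.09, adjusted p = 7.98e-09). The small fall at day 2 (-0.24, SE 0.089, adjusted p = 0.045) was lost without day 2 C (0.418), day 6 A (0.0583), day 6 B (0.0524), day 6 C (0.0553), day 12 B (0.0616), control A (0.0601), control B (0.113) or control C (0.113) and by limma on log2(TPM + 1) (adjusted p = 0.406).

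Of the summed TPM of the 4 Slc29 genes, Slc29a1 held 68.4% ± 2.71 in control and 84% ± 1.2 at day 12, and Slc29a3 20.4% ± 0.727 and 9.24% ± 0.907 (SD, n = 3). Slc29a2 and Slc29a4, the ENT2 carrier and the monoamine carrier PMAT, were not called at any day and had 4.08 to 10.8 CPM in the control, day 2 and day 6 libraries and 2.57 to 8.19 CPM at day 12. The 3 sodium-driven nucleoside carriers of the Slc28 family had at most 2 counts in any group. Of 17 nucleoside salvage genes, 15 were tested; 2 rose and 8 fell at day 6 (66.7% called), and 3 rose and 7 fell at day 12 (66.7%). Nt5e, the ectoenzyme that makes adenosine from AMP, fell from 73.5 ± 3.8 to 6.47 ± 1.38 CPM (-3.50, adjusted p = 5.87e-24). The adenosine receptor gene Adora1 fell from 23.4 ± 3.14 to 3.85 ± 1.74 CPM (-2.61, adjusted p = 6.12e-13). Adora2b rose from 0.759 ± 0.198 to 7.37 ± 0.83 CPM (3.28, adjusted p = 1.06e-10).

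The 2 abundant organic anion transporting polypeptides fell by day 6 and further by day 12. Slco2a1, which encodes the prostaglandin transporter (chromosome 9, 102988712 to 103096002, plus strand, with the RefSeq start inside this range), had 202, 204 and 212 CPM in control and 122, 147 and 128 at day 2. Slco2a1 then stood at 88.9, 96.7 and 95.4 CPM on day 6 and 67.7, 59.8 and 62.4 on day 12. No 2 groups overlapped, and the fall was 1.57-fold at day 2 (-0.65, SE 0.064, adjusted p = 5.8e-10), 2.2-fold at day 6 (-1.14, SE 0.065, adjusted p = 8.62e-17) and 3.26-fold at day 12 (-1.70, SE 0.067, adjusted p = 2.4e-21). Slco4a1, a carrier of thyroid hormone and other organic anions (chromosome 2, 180456245 to 180474867, plus strand), had 93.4, 94.1 and 90.8 CPM in control and 83.2, 87.5 and 79.6 at day 2. Slco4a1 then stood at 32.9, 22.2 and 32.3 CPM on day 6 and 14.8, 8.64 and 10.5 on day 12. It was not called at day 2 (adjusted p 0.382), and was 3.19-fold lower at day 6 (-1.67, SE 0.13, adjusted p = 4.55e-09) and 8.23-fold lower at day 12 (-3.04, SE 0.14, adjusted p = 7.77e-12).

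Slco3a1, a prostaglandin and organic anion carrier, was called at day 2 alone (0.56, SE 0.08, adjusted p = 1.01e-06). Its CPM was 52.6, 50.2 and 53 in control and 75, 88.4 and 70.5 at day 2, then 50.4, 45.4 and 51.4 on day 6 and 58.7, 56.9 and 55 on day 12. Slco5a1, an orphan member, was called higher at day 2 (0.37, SE 0.14, adjusted p = 0.0461), a call lost without day 2 A (0.0953), day 2 B (0.146), day 6 A (0.0525), day 6 B (0.0526), day 6 C (0.0523), day 12 A (0.0513), day 12 B (0.0522), control B (0.101) or control C (0.277) and by limma on log2(TPM + 1) (adjusted p = 0.183). The other 11 Slco genes were below the filter; the most counted was Slco1a5, with 12, 7, 18 and 28 counts in the 4 groups, and the genes Slco1a1, Slco1a4, Slco1a5 and Slco1a6 may share reads. Slco4c1, the organic anion transporting polypeptide known from kidney, had 1 count in all. The summed TPM of the family went from 132.5 ± 3.63 in control to 120.1 ± 6.07, 72.4 ± 6.4 and 53.8 ± 3.23 at days 2, 6 and 12.

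**Figure D4:**
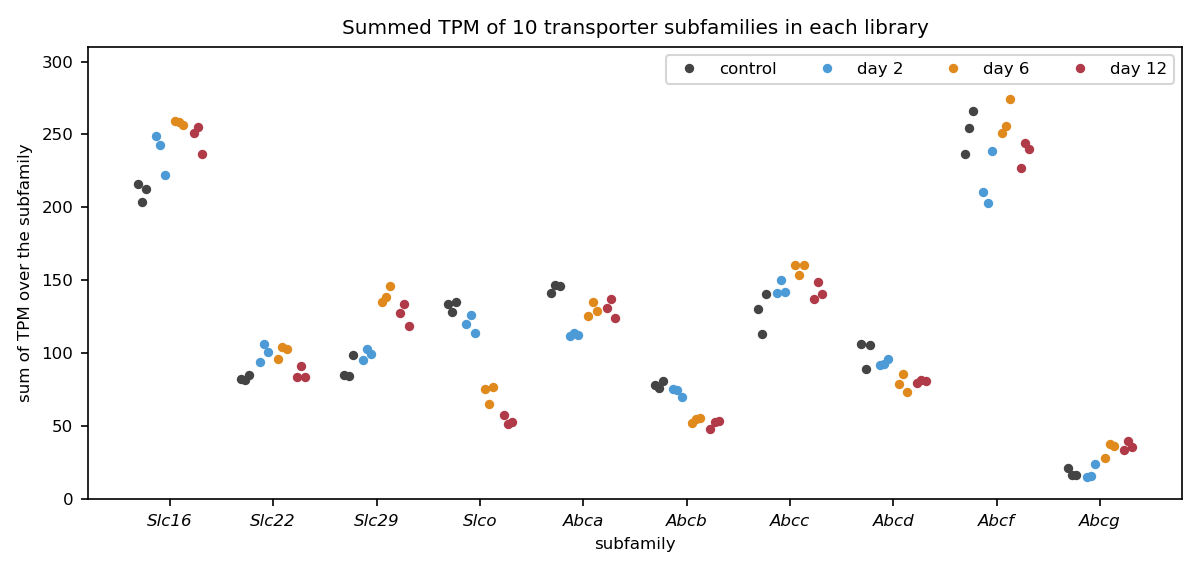
Sum of TPM over all members of 10 subfamilies (horizontal axis) in each library (points, coloured by group). The Slco sum falls from about 132.5 TPM in control to 53.8 at day 12, the Slc29 and Abcg sums are higher at days 6 and 12 than in control, and the Abcb and Abcd sums are lower.

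Exporters of cellular cholesterol rose by day 6. Abca1, which loads cholesterol and phospholipid onto apolipoprotein A-I (chromosome 4, 53030787 to 53159895, minus strand), had 10.4, 12.3 and 11.9 CPM in control and 11.8, 12.2 and 13.2 at day 2. Abca1 then stood at 124, 139 and 125 CPM on day 6 and 139.5, 148 and 141 on day 12. The day 2 libraries lay within or just above the control range (adjusted p 0.537), and the rise was 11.2-fold at day 6 (3.49, SE 0.087, adjusted p = 5.62e-27) and 12.4-fold at day 12 (3.63, SE 0.087, adjusted p = 1.23e-27). Abcg1, which passes cholesterol to mature high-density lipoprotein, had 22.9, 24.2 and 26.3 CPM in control and 25.3, 21.5 and 20.6 at day 2. Abcg1 then stood at 66.3, 67.2 and 68.7 CPM on day 6 and 68.8, 62.5 and 59.7 on day 12. It was 2.74-fold higher at day 6 (1.46, SE 0.087, adjusted p = 2.9e-16) and 2.59-fold higher at day 12 (1.37, SE 0.087, adjusted p = 1.29e-15), also with no overlap. By TPM, Abca1 held 18.2% ± 4.35 of the pair in control and 20.9% ± 0.41, 46.5% ± 2.77 and 54.4% ± 3.88 on days 2, 6 and 12.

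The sterol exporter subunits Abcg5 and Abcg8 lie head to head on chromosome 17 (84658234 to 84700333) and were below the filter. Abcg5 had no count in control, 8, 13 and 3 at day 6 and 0, 5 and 3 at day 12, at least 7.66-fold higher at day 6 against a limit of 3 counts over the control group (4.78 to 9.33 as 1 library at a time was left out, lowest without control C). Abcg8 had 1 count in control, 8, 4 and 4 at day 6 and 9, 2 and 7 on day 12, with a day 6 ratio of 15.3 (95% counting limits 2.38 and 642; at least 3.19-fold without control C, which held the control count). Exons of the 2 genes overlap on opposite strands and the use of strand in counting is not given, so their counts may not be separate.

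Of 12 genes of cholesterol efflux, its acceptors and targets of LXR, the oxysterol receptor, 11 were tested. At day 6, 7 rose and 2 fell (81.8% called), and at day 12, 7 rose and 3 fell (90.9%), with a median log2 fold change of 0.65 and 0.46 against -0.01 and 0.00 over all tested genes. Mylip, a ubiquitin ligase, went from 33.6 ± 3.32 to 80.6 ± 5.59 CPM at day 6 (1.25, adjusted p = 2.07e-15). Srebf1, a regulator of lipid synthesis, rose to 292 ± 10.3 CPM at day 6 from 173 ± 8.48 (0.75, adjusted p = 1.98e-13) and was not called at day 12 (adjusted p 0.171). Pltp, the phospholipid transfer protein, rose from 178 ± 10.9 to 341 ± 5.55 CPM at day 6 (0.94, adjusted p = 4.2e-12). Nr1h2, which encodes LXR beta, was at 70.3 ± 2.17 CPM in control and 78.6 ± 3.12 at day 6 (0.16, adjusted p = 0.044), and Nr1h3, LXR alpha, was below the filter.

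Abcg2, the urate and drug exporter BCRP, had 8.76, 9.41 and 9.51 CPM in control and 9.52, 11.5 and 13.4 at day 2. Abcg2 then stood at 7.16, 9.28 and 10.4 CPM on day 6 and 15.1, 17.7 and 15.3 on day 12. Only day 12 was called against control (0.80, SE 0.15, adjusted p = 2.71e-05), and with limma on log2(TPM + 1) it was not (adjusted p = 0.0699). The sixth member, Abcg4, had 11 to 16 counts per group, and Abcg3 had none.

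In the rest of the Abca subfamily, 1 gene rose from a low level and the most abundant one fell by day 2. Abca8b (chromosome 11, 109932190 to 109995845, minus strand) had 1.61, 1.94 and 1.04 CPM in control and 2.72, 3.51 and 2.65 at day 2. Abca8b then stood at 9.74, 9.5 and 7.47 CPM on day 6 and 22.5, 21.9 and 22.6 on day 12. No 2 groups overlapped. The rise was 5.95-fold at day 6 (2.57, SE 0.22, adjusted p = 3.36e-12) and 14.8-fold at day 12 (3.89, SE 0.19, adjusted p = 1.74e-18), and the call at day 2 (0.92, SE 0.28, adjusted p = 0.0139) was lost without control C (0.128) and by limma on log2(TPM + 1) (adjusted p = 0.172). Abca2, an endolysosomal lipid transporter with the highest TPM of the subfamily in control (64 ± 2.1), had 290.3, 289.5 and 306 CPM in control and 191, 191 and 176 at day 2. Abca2 then stood at 128, 118 and 128 CPM on day 6 and 128, 126 and 136 on day 12. It was 1.59-fold lower at day 2 (-0.67, SE 0.057, adjusted p = 1.63e-11), 2.38-fold at day 6 (-1.25, SE 0.058, adjusted p = 2.64e-19) and 2.27-fold at day 12 (-1.19, SE 0.058, adjusted p = 7.99e-19).

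Abca8b belongs to a run of genes on chromosome 11 (109450855 to 110337716) in which Slc16a6, Abca8b, Abca8a, Abca9, Abca6 and Abca5 follow one another. Abca5, a lysosomal member, had 29.9, 33.4 and 35.4 CPM in control and 38.2, 43.5 and 37.1 at day 2. Abca5 then stood at 47.1, 49.6 and 47.5 CPM on day 6 and 63.8, 64.3 and 61.2 on day 12, higher by 0.55 at day 6 (adjusted p 1.04e-06) and 0.94 at day 12 (4.43e-12). The day 6 call was lost by limma on log2(TPM + 1) (adjusted p = 0.144). Its call at day 2 (0.24, SE 0.088, adjusted p = 0.0432) was lost without day 2 A (0.0682), day 2 B (0.151), day 6 A (0.0515), control A (0.212) or control B (0.0734), and on TPM its sign turned, to -0.07 with limma on log2(TPM + 1) (adjusted p = 0.864). Abca8a had 0, 0, 1 and 11 counts in control and at days 2, 6 and 12, Abca9 0, 0, 3 and 10, and Abca6 1, 0, 0 and 4. Slc16a6 at the end of the run was not called at any day. Abca8a, Abca8b, Abca9 and Abca6 are related genes of 1 subfamily. Whether reads from Abca8b were placed on the other 3 was not tested.

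**Figure D5:**
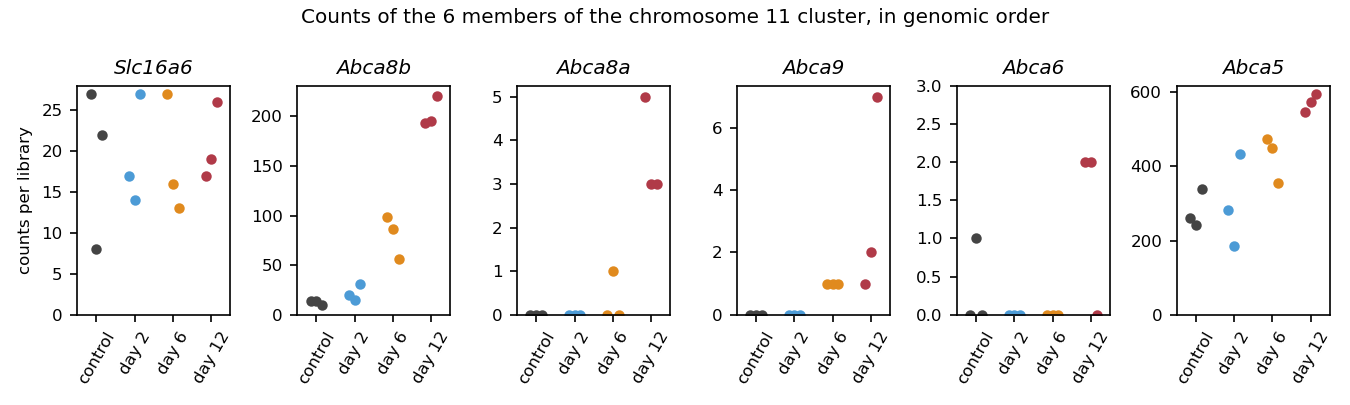
Deposited counts per library (vertical axis, own scale in each panel) of Slc16a6, Abca8b, Abca8a, Abca9, Abca6 and Abca5 in the 4 groups, in genomic order. Abca8b and Abca5 are highest at day 12, the 3 genes between them have at most 7 counts in any library, and Slc16a6 has 8 to 27 counts with the groups overlapping.

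Abca3, known for the surfactant phospholipids of lung, had 223, 232 and 230.2 CPM in control, 177, 195 and 188 at day 6 and 173, 175 and 166 at day 12, lower by -0.29 (adjusted p 3.11e-05) and -0.41 (8.6e-08); on log2(TPM + 1) with limma the day 6 call was lost (adjusted p = 0.071). Abca4, the retinoid transporter of photoreceptors, had 2.42, 2.21 and 2.09 CPM in control, 0.895, 0.552 and 1.87 at day 6 and 0.583, 0.898 and 0.616 at day 12, lower at day 12 (-1.66, SE 0.41, adjusted p = 0.000966); its call at day 6 (-1.06, adjusted p = 0.0191) was lost without day 6 A (0.0845), day 6 B (0.137) or control A (0.0614) and by limma on log2(TPM + 1) (adjusted p = 0.303). Abca7 had 59.4, 66.8 and 57.2 CPM in control and 49.5, 51 and 56.8 at day 12 (-0.22, SE 0.077, adjusted p = 0.0184), a call lost without day 12 A (0.0937), day 12 B (0.0701) or control B (0.129) and by limma on log2(TPM + 1) (adjusted p = 0.216). Of the 16 Abca genes, 7 were tested; 3 rose and 3 fell at day 6 (85.7% called), and 3 rose and 4 fell at day 12 (100%).

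Among the Abcb genes, Abcb6, Abcb8 and Abcb10, ABC proteins placed in mitochondria, fell at day 6 and at day 12 and were not called at day 2. Abcb8, of the inner mitochondrial membrane, had 43.3, 46.8 and 46.4 CPM in control and 39.7, 48.4 and 40.1 at day 2. Abcb8 then stood at 27.9, 29.8 and 30.5 CPM on day 6 and 25.3, 26.5 and 26.2 on day 12 (-0.81, SE 0.087, adjusted p = 9.75e-10 at day 12). Abcb10, an inner membrane protein needed for heme synthesis, had 22.8, 25 and 23.1 CPM in control and 14, 12.2 and 14.8 at day 6 (-0.79, SE 0.12, adjusted p = 1.28e-06). Abcb6, also tied to porphyrins, had 32.8, 34.9 and 29.9 CPM in control and 23.4, 24.5 and 22.4 at day 6 (-0.47, SE 0.099, adjusted p = 0.00014). In each of the 3 genes the day 6 and day 12 libraries lay below every control library. Groups did not overlap in 60.9% and 59.8% of all tested genes in these comparisons.

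The genes of the drug pump P-glycoprotein, Abcb1a and Abcb1b, had low counts. Abcb1b had 1.38, 2.08 and 2.61 CPM in control and 1.09, 0.468 and 1.02 at day 2. Abcb1b then stood at 1.89, 0.995 and 1.2 CPM on day 6 and 0.7, 1.68 and 1.64 on day 12 and was not called at any day, although its day 2 libraries lay below the control libraries (adjusted p 0.0605; called without control A (0.0391)). Abcb1a had 10, 9, 26 and 29 counts in the 4 groups, and reads may be split between this pair of near copies. The bile salt and phosphatidylcholine pumps Abcb11 and Abcb4 had 1 to 11 counts per group, and Abcb9, a lysosomal peptide transporter, was not called at any day.

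ABC transporters whose symbols lie outside the families were listed apart, and all 3 changed at day 6 and day 12, where 54.3% and 52.8% of all tested genes did. Tap1 and Tap2 encode the subunits of the peptide transporter of antigen presentation. Tap1 went from 11.1 ± 2.06 CPM in control to 24 ± 1.95 at day 12 (1.13, adjusted p = 5.64e-09). Tap2 went from 17.9 ± 3.36 CPM to 35.5 ± 2.43 at day 12 (0.99, adjusted p = 1.03e-08). Cftr, the chloride channel, went from 10.1 ± 0.923 CPM in control to 5.15 ± 0.711 at day 12 (-0.97, adjusted p = 1.95e-05). Of 5 partners of TAP in peptide loading, all tested, 3 rose and 2 fell at day 6 (100% called), and 3 rose and 1 fell at day 12 (80%). B2m, the light chain of MHC class I, went from 139 ± 3.89 CPM in control to 319 ± 20.1 at day 12 (1.20, adjusted p = 3.26e-10).

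The multidrug resistance proteins of the Abcc subfamily split by member. Abcc3, which exports conjugates across the basolateral membrane, had 92.4, 99.2 and 99.7 CPM in control and 140.5, 152 and 145 at day 2. Abcc3 then stood at 186, 188 and 182 CPM on day 6 and 185, 189 and 174 on day 12. It was 1.5-fold higher at day 2 (0.58, SE 0.06, adjusted p = 1.34e-09), 1.91-fold at day 6 (0.93, SE 0.059, adjusted p = 1.2e-15) and 1.88-fold at day 12 (0.91, SE 0.059, adjusted p = 1.94e-15), with every treated library above every control. Abcc4, an exporter of organic anions, cyclic nucleotides and prostaglandins placed at the apical membrane of the tubule, had 142, 132 and 142 CPM in control and 109.8, 117 and 109 at day 2. Abcc4 then stood at 89.8, 88.6 and 86.8 CPM on day 6 and 69.4, 70.6 and 70 on day 12. No 2 groups overlapped, and it was 1.24-fold lower at day 2 (-0.32, SE 0.059, adjusted p = 9.93e-05), 1.57-fold at day 6 (-0.65, SE 0.059, adjusted p = 1.96e-11) and 1.98-fold at day 12 (-0.99, SE 0.061, adjusted p = 5.44e-16). By TPM, Abcc3 went from 32 ± 2.67 in control to 62.6 ± 4.93 at day 12 and Abcc4 from 38.3 ± 3.8 to 20.1 ± 0.767.

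Abcc10 had 15.9, 16.2 and 16.8 CPM in control, 26.5, 25.3 and 27.9 at day 6 and 21.7, 19.1 and 15.8 at day 12, higher at day 6 alone (0.70, SE 0.12, adjusted p = 3.65e-06), with a call at day 12 without day 12 C (0.0332); its exons overlap those of Dlk2 on the other strand. Abcc1, the glutathione conjugate pump MRP1, had 73.7, 72.1 and 76.6 CPM in control and 84.3, 86.1 and 85.2 at day 6 (0.20, SE 0.063, adjusted p = 0.00803) and was not called at day 12. Abcc5, an exporter of cyclic nucleotides, had 98.3, 87.3 and 89.8 CPM in control and 74.4, 73.4 and 76 at day 12 (-0.30, SE 0.065, adjusted p = 0.000188), but on log2(TPM + 1) with limma it did not differ from control beyond error at day 6 (adjusted p = 0.917) or day 12 (adjusted p = 0.979). The apical pump Abcc2 had 2 to 7 counts per group, and Abcc6, Abcc8, Abcc9 and Abcc12 0 to 6. In the 5 tested genes, 3 rose and 2 fell at day 6 (100% called), and 1 rose and 2 fell at day 12 (60%).

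Abcd2, Abcd3 and Abcd4 were tested, and each was called lower at day 6 and at day 12, where 54.3% and 52.8% of all tested genes were called. The Abcd2 and Abcd4 calls were lost under some alternatives, given below. Abcd3, the most abundant of the peroxisomal fatty acid importers by TPM, had 168, 153 and 160.1 CPM in control and 154, 152 and 155 at day 2. Abcd3 then stood at 114, 128 and 107 CPM on day 6 and 123, 129 and 124 on day 12 (-0.46, SE 0.062, adjusted p = 9.66e-08 at day 6). Abcd2 was spread widely among control libraries, with 2.77, 1.38 and 5.54 CPM, against 0.272, 0.234 and 0.769 at day 2. Abcd2 then stood at 0.497, 0.663 and 0.667 CPM on day 6 and 1.4, 1.12 and 0.411 on day 12. It was 6.45-fold lower at day 2 (-2.69, SE 0.52, adjusted p = 0.000213) and 5.42-fold at day 6 (-2.44, SE 0.49, adjusted p = 9.16e-05); control B and day 12 A overlapped, the call at day 12 (adjusted p 0.00115) was lost without control C (0.0579), and with limma on log2(TPM + 1) none of the 3 calls held (adjusted p = 0.186, 0.676 and 0.225). Abcd4, of lysosomal cobalamin transport, had 15.7, 14.2 and 13.7 CPM in control and 7.75, 11.7 and 9.56 at day 2 (-0.62, SE 0.15, adjusted p = 0.00238), a call lost by limma on log2(TPM + 1) (adjusted p = 0.0675). Its calls at day 6 (-0.34, adjusted p = 0.0443) and day 12 (-0.37, adjusted p = 0.0297) were lost without day 2 C (0.0514), day 6 B (0.13), day 6 C (0.104), day 12 B (0.059), day 12 C (0.0512), control A (0.149), control B (0.0672) or control C (0.0504) at day 6 and without day 12 B (0.0838), day 12 C (0.166) or control A (0.111) at day 12, and both by limma on log2(TPM + 1) (adjusted p = 0.3 and 0.214).

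Of 10 genes of peroxisomal fatty acid oxidation and import, all tested, 2 rose and 3 fell at day 6 (50% called, below the 54.3% of all tested genes), and 3 rose and 4 fell at day 12 (70%, against 52.8%). Pex5, the import receptor, went from 52.9 ± 2.55 to 84.2 ± 1.71 CPM at day 6 (0.67, adjusted p = 4.77e-10), and Acsl1, a fatty acid CoA ligase, from 60.3 ± 1.22 to 21 ± 1.56 (-1.52, adjusted p = 1.64e-16).

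The Abce and Abcf proteins work on ribosomes and cross no membrane. Abce1, the ribosome recycling factor, had 195, 184 and 185 CPM in control and 172, 169 and 184 at day 2. Abce1 then stood at 128, 145 and 138 CPM on day 6 and 182, 164 and 171 on day 12, lower at day 6 alone (-0.46, SE 0.06, adjusted p = 5.59e-08), with a call at day 12 without day 12 A (0.0386). Abcf2 had 139, 135 and 139 CPM in control and 111, 114 and 110.5 at day 12 (-0.30, SE 0.061, adjusted p = 6.9e-05). Abcf1, a factor of translation initiation, had 186, 202 and 196 CPM in control and 162, 157 and 192 at day 2, where a lower call (-0.18, adjusted p = 0.0447) was lost without day 2 A (0.236), day 2 B (0.189), day 6 A (0.0578), day 6 B (0.0522), day 6 C (0.0573), day 12 A (0.0511), day 12 B (0.0627), day 12 C (0.0532), control B (0.155) or control C (0.12) and by limma on log2(TPM + 1) (adjusted p = 0.0588). Abcf3 was called higher at day 6 (0.20, adjusted p = 0.0316) and day 12 (0.19, adjusted p = 0.0403), calls lost without day 6 A (0.0586), day 6 C (0.102) or control C (0.264) at day 6 and without day 12 B (0.088), day 12 C (0.137), control B (0.0523) or control C (0.306) or by limma on log2(TPM + 1) (adjusted p = 0.0704) at day 12. Of 9 listed partners in translation and stress, 1 rose and 6 fell at day 6 (77.8% called), and 4 fell at day 12 (44.4%, below the 52.8% of all tested genes). Gcn1, the activator of the GCN2 kinase, went from 272 ± 12.6 to 189 ± 4.47 CPM (-0.52, adjusted p = 3.17e-10).

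Factors and scaffolds known to act on transporter genes and proteins were listed too. Of 22 nuclear receptors and factors, 15 were tested; 2 rose and 6 fell at day 2 (53.3% called, against 21.2% of all tested genes), 5 rose and 6 fell at day 6 (73.3%), and 4 rose and 7 fell at day 12 (73.3%). Hnf4a fell from 12.8 ± 2.99 CPM to 0.303 ± 0.167 on day 6, with 2.05 ± 0.718 on day 12 (-2.64, adjusted p = 8.38e-11). Pparg, a receptor of fatty acids, rose from 1.86 ± 0.232 to 13.3 ± 1.95 CPM (2.84, adjusted p = 2.43e-14). Of 7 scaffolds, all tested, 1 rose and 6 fell at day 6 (100% called) and 1 rose and 5 fell at day 12 (85.7%). Pdzk1, which anchors carriers under the apical membrane, fell from 8.29 ± 0.0235 CPM in control to 0.757 ± 0.245 at day 2 and 0.0342 ± 0.0593 at day 12 (-7.34, adjusted p = 3.41e-14). The day 12 mean lay below the limit of 3 counts over that group (0.11 CPM), so the size of the fall there is uncertain.

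Of 32 enzymes of drug conjugation and oxidation, 20 were tested; 6 rose and 11 fell at day 6 (85% called), and 7 rose and 11 fell at day 12 (90%), with a median log2 fold change of -0.45 at day 12 against 0.00 over all tested genes. Gstm1, a glutathione transferase, fell from 1325 ± 29 to 377 ± 38.9 CPM (-1.81, adjusted p = 4.37e-23), and Por, the reductase that serves cytochromes P450, from 384 ± 8.99 to 126 ± 2.42 (-1.61, adjusted p = 1.34e-23). Cyp1b1, a cytochrome P450 induced through the aryl hydrocarbon receptor, rose from 1.27 ± 0.214 to 19.8 ± 0.923 CPM at day 2 and 78.1 ± 3.36 at day 12 (5.94, adjusted p = 5.83e-28).

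Day 6 differed from day 2 in 37 of the 52 tested genes, 16 higher and 21 lower (44.9% of all tested genes were called), and day 12 from day 6 in 16 genes, 7 higher and 9 lower (22% of all tested genes). Of these, 8 and 3 genes changed at least 2-fold, against 7.57% and 2% of all tested genes. Between day 2 and day 6, Abca1 rose by 3.36 (adjusted p 1.43e-25) and Abcg1 by 1.59 (2.58e-16) on the log2 scale, and Slc16a3 fell by 1.59 (2.19e-13) and Slco4a1 by 1.51 (4.5e-08). The 4 tested Slco genes were all lower at day 6 than at day 2, among them Slco3a1 (-0.65, adjusted p = 3.37e-08) and Slco5a1 (-0.45, adjusted p = 0.00681), whose levels had been highest at day 2; the Slco5a1 call was lost by limma on log2(TPM + 1) (adjusted p = 0.111). Slc22a23 likewise fell by 0.40 (adjusted p 2.04e-06) and Slc22a5 rose by 0.50 (0.000361).

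From day 6 to day 12, Slc16a12 fell by 0.63 (adjusted p 8.3e-11), Slco4a1 by 1.37 (1.21e-05) and Slco2a1 by 0.56 (1.69e-07), and Abca8b rose by 1.31 (9.78e-09). Slc16a3 rose by 0.64 (6.79e-05), Abce1 by 0.34 (8.49e-05) and Abcg2 by 0.85 (5.17e-05), and Abcc10 fell by 0.50 (0.00123) and Slc22a17 by 0.69 (0.000394). By limma on log2(TPM + 1) the Abcg2, Abcc10 and Slc22a17 calls between these days were lost (adjusted p = 0.075, 0.0717 and 0.121). Abca1, Abcg1, Slc29a1 and Abcc3 were not called between these days (adjusted p 0.105, 0.496, 0.734 and 0.831); Abca1 gained a call without day 6 B (adjusted p = 0.0445).

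The 16 genes without a count were Abca14, Abca15, Abca16, Abcb5, Abcg3, Slc22a3, Slc22a20, Slc22a26, Slc22a27, Slc22a28, Slc22a29, Slc22a30, Slco2b1, Slco6b1, Slco6c1 and Slco6d1, of which Slco6b1 is annotated as a transcribed pseudogene. The genes with 1 to 4 counts over all 12 libraries were Abca12, Abca13, Abca17, Abcc9, Abcc12, Slc22a6, Slc22a7, Slc22a12, Slc22a13, Slc22a16, Slc22a19, Slc22a22, Slc28a2, Slc28a3, Slc47a2, Slco1a1, Slco1c1 and Slco4c1. Slc22a18 had 0, 10, 8 and 3 counts in control and at days 2, 6 and 12, Slco1a4 0, 0, 4 and 8, Slco1b2 0, 0, 1 and 5, and Slco1a6 8, 4, 7 and 5.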

How the data were processed

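PolyA RNA of PT-22 cells was sequenced in 12 libraries. Per the submitters' processing notes, RSEM 1.3.3, STAR 2.7.8a, FastQC 0.11.8 and cutadapt 2.3 were used and GRCm38 was the build; the annotation release, strand use and filters are not given in the sources used here. The authors deposited whole-number counts, taken here as rounded expected counts because RSEM is among the named tools, and these were used as they stand. They deposited TPM (transcript levels scaled for length and library) as a second table, used here for levels compared between genes and for shares. All sample columns were used, and groups came from the labels.

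The test of counts was edgeR 4.0.16 in R 4.3.3, with filterByExpr by group (13513 genes kept), TMM, and 1 robust quasi-likelihood model of the 4 groups with 8 residual degrees of freedom and a common dispersion equal to a coefficient of variation of 0.0577. Tests were two-sided with Benjamini-Hochberg adjustment over all 13513 genes and a threshold of 0.05. The fitting steps were tested on simulated data. Alternatives were DESeq2 1.42.0, its size factors in edgeR, limma 3.58.1 on log2(TPM + 1) and log2(TPM + 0.1), no filter, a filter of 1 CPM in 3 libraries, a block for the library letter, and leaving out each library. Groups without counts were given a limit of 3 counts per group, and 95% counting intervals are exact; both cover counting error only. Pairs of replicate libraries differed by a chi-square per degree of freedom of 2.12 to 7.56, more than sampling noise.

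Any gene of the named families could be named; a few are not reported here. Per-library values were set for genes with at least 5 CPM in a group and the smallest p across the 4 groups, up to 25, and for up to 2 more per subfamily by TPM; values of other genes were added after their results were seen. Most genes named from the other lists were chosen for the smallest p across the 4 groups, so they are not typical of their lists. The families, lists and tests were chosen with earlier results of these data known. Gene positions came from GENCODE M21, in which all 113 IDs and symbols matched.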

Additional observations from a re-analysis of the deposited data

Results flagged for a closer look

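Levels moved between the treated days as well as against control. Of the 52 tested transporter genes, 37 differed between day 6 and day 2 (71.2%), and 16 between day 12 and day 6 (30.8%), by edgeR's test of the difference between those groups. Of all tested genes, 44.9% and 22% were called in the same comparisons. Slc16a12, the creatine carrier, was higher than control at day 6 and lower at day 12. The difference between day 12 and day 6 was itself called (log2 fold change -0.63, adjusted p = 8.3e-11). Every day 12 library lay below every day 6 library, and groups did not overlap in 39.3% of all tested genes between these days.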

How the results depend on the processing

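The counts of called transporter genes were recomputed under each alternative. They moved by more than 1.5 times with limma on the deposited TPM alone. On log2(TPM + 1), the genes higher at day 2 went from 9 to 4, those lower at day 2 from 9 to 5, those lower at day 6 from 20 to 13, and, between day 12 and day 6, those higher from 7 to 4 and those lower from 9 to 4. On log2(TPM + 0.1) the same counts were 4, 4, 13, 3 and 4, and the genes lower at day 6 than at day 2 went from 21 to 13. Leaving out 1 library at a time kept all counts within 1.5 times: 7 to 10 higher and 7 to 9 lower at day 2, 17 to 18 and 18 to 20 at day 6, and 12 to 15 and 21 to 22 at day 12. With fewer libraries in a group, the filter admits more genes. Abca5 at day 2 reversed, to -0.067 on log2(TPM + 1) and -0.07 on log2(TPM + 0.1), neither called (adjusted p = 0.864 and 0.872); the cause was not tested. Over 4940 recomputed comparisons of single genes, 2498 kept a call and its direction, 198 lost a call, 27 gained one and 2 called ones reversed. In the other 2215, called in neither, the sign turned in 104. Of 260 comparisons of single genes, DESeq2 ended 12 calls. Its size factors in edgeR ended 3, no filter 6, and 1 CPM in 3 libraries 1. Against control, DESeq2 did not call Abca5 (adjusted p = 0.0677), Abcf1 (0.0742), Slc29a3 (0.116) and Slco5a1 (0.0909) at day 2. It did not call Abca4 (0.0599) and Abcd4 (0.104) at day 6, or Abcd4 (0.072), Abcf3 (0.0626) and Slc22a21 (0.0959) at day 12. The rest were between treated days. Of the calls against control, 7 of 18 at day 2, 26 of 36 at day 6 and 28 of 35 at day 12 held under all alternatives, as did 26 of 37 between day 6 and day 2 and 7 of 16 between day 12 and day 6.

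The labels do not say whether the letters A, B and C pair the libraries, and no shift shared by letter was seen. Same-letter deviations from the group means correlated by -0.149 to 0.111, and 1 of 18 pairs exceeded 0.1. Of 12 libraries, 4 correlated best with their own letter. With so few libraries a group, this cannot exclude that the letters mark paired cultures. With the replicate block, 10 genes were higher and 9 lower at day 2, 16 and 20 at day 6, and 13 and 22 at day 12; Slc16a3 was called higher at day 2 (adjusted p = 0.0316).

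Depth limits the 61 genes below the filter, and the loss of PAX8 cannot be told apart from drug, Cre and time.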
